A study of Mus musculus with 14 samples.

Results

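Bulk RNA-Seq was used to follow 10 genes of the circadian clock in peeled esophageal epithelium and in esophageal stroma of young and aged mice. The genes were taken by name from the 55291 genes counted: Arntl (BMAL1), Clock, Per1, Per2, Per3, Cry1, Ciart, Nr1d1 (REV-ERBα), Nr1d2 (REV-ERBβ) and Dbp. The question was whether both layers of one mouse carried a common state of the clock, and whether aged and young mice differed. All 14 samples came from 9 C57BL/6 mice, unmanipulated and without treatment, with an age of at least 18 months for aged mice and at most 4 months for young mice in the series' description. Epithelium was taken from 5 aged mice (O1, O2, O3, OF5 and OM8) and 4 young mice (Y1, Y3, YF5 and YM4), and stroma from 5 of the same 9 mice, of which O1, O2 and O3 were aged and Y1 and Y3 young. OF5, OM8, YF5 and YM4 carried another form of mouse code and had no stroma. Sex was given only for OM8 and YM4 (male) and YF5 (female). According to the methods the mice lived under a regular light-dark cycle with free access to chow, and the time of day of dissection is not given in the sources used here. One level per mouse and layer was thus measured, from which no phase was estimated.

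In the clock of mammalian cells, BMAL1 and CLOCK pair on E-box sequences and switch on the Per and Cry genes, Ciart, the Nr1d genes and Dbp. PER, CRY and CIART proteins then repress BMAL1 and CLOCK, while the REV-ERB receptors repress Arntl, so that Arntl transcripts peak roughly opposite to those of Nr1d1 and Dbp over a day. DBP is a PAR bZIP factor that carries the rhythm to output genes through D-box sequences. Keratinocytes possess such a clock, and so do skeletal muscle fibres, of which the muscle coat of the mouse esophagus is largely made.

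To show the elements through which these genes are wired to each other, the 250 bases upstream of the RefSeq transcript starts (GRCm38.p6) were searched for the E-box CACGTG, which reads the same on both strands, for the D-boxes TTATGTAA and TTATGCAA on either strand, and for the REV-ERB core element AGGTCA on either strand. Of the 10 genes, 9 matched a RefSeq promoter, with 13 windows in all, and Per2 did not. The E-box was present upstream of Per1, Cry1 and Ciart, and in 6.02% of all 32851 windows of this length. The D-box was present upstream of Per1 and Per3, and in 1.501% of all windows. The core element was present upstream of Clock, Per1 and Nr1d2, and in 14.02% of all windows. The 4 windows with an E-box or a D-box are given 5′ to 3′ on the strand of the gene, with these motifs in capitals on whichever strand they read, and no motif shares letters with another there. The Per1 window lies at chr11:69098699-69098948 on the plus strand, the Per3 window at chr4:151044666-151044915, the Cry1 window at chr10:85185055-85185304 and the Ciart window at chr3:95882229-95882478, the last 3 on the minus strand.
Per1: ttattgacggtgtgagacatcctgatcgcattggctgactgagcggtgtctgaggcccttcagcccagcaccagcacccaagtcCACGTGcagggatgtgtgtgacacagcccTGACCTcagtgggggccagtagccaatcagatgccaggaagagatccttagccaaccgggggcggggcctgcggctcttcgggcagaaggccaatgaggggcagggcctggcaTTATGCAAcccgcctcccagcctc
Per3: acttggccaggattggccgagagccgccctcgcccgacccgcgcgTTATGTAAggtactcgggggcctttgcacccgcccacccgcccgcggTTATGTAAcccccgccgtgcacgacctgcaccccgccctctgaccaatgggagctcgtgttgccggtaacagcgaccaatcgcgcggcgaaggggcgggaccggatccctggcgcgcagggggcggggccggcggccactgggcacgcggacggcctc
Cry1: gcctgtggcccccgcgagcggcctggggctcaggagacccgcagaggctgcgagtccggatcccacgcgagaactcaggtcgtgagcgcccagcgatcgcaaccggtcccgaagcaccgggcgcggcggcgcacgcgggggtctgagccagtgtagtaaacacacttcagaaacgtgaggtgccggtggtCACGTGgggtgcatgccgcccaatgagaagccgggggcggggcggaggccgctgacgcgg
Ciart: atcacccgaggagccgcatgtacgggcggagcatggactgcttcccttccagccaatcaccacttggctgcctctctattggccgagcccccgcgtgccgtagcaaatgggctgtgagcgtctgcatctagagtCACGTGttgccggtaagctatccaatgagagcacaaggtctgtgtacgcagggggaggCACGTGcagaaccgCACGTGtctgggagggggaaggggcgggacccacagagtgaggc
The Per1 window carried all 3 motifs, the Per3 window 2 D-boxes and the Ciart window 3 E-boxes. A match of letters is no evidence that a factor was bound in these tissues.

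The libraries held 8217516 to 21867101 counts. The labelled layers were clear in their markers: summed over 10 keratinocyte genes the normalised counts (CPM on the TMM-adjusted library size) were 17882 to 55463 in epithelium and 48.4 to 470.1 in stroma, and summed over 12 skeletal muscle genes they were 169.5 to 1855 in epithelium and 42353 to 76538 in stroma. All 10 keratinocyte genes were higher and all 12 skeletal muscle genes lower in epithelium by edgeR's quasi-likelihood test (adjusted p under 0.05), as were all 5 adipocyte genes. The libraries of OF5, OM8, YF5 and YM4 were the shallowest, with 8217516 to 9399448 counts against 13257833 to 21867101 in the other 10. Their TMM factors were also lower, at 0.256 to 0.506 against 1.28 to 1.74. With depth and factor together, 3 counts corresponded to 0.707 to 1.25 normalised counts there and to 0.0872 to 0.175 in the other 10. Levels set across these 2 sets of libraries depend on the factors. In the stroma of O3, transcripts of B lineage cells stood apart, with Igkc at 868.3 against 10.2 to 84.9 in the other 4 stromal samples.

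Per kilobase of exon, the normalised counts placed Clock (6.59 ± 0.468, SD, n = 9) and Nr1d1 (6.01 ± 2.53) at the top in epithelium. Their ranges overlapped, since Clock had the higher mean but Nr1d1 lay above Clock in O2, OF5 and YF5. The lowest sample of Clock (5.65) lay above the highest of each of the other 8 clock genes, while the lowest sample of Nr1d1 (3.57) lay above all of Arntl (2.30 ± 0.297) but below the highest of Cry1 (4.29), both values being those of Y1. After them Arntl, Cry1, Per1, Nr1d2, Per3, Per2, Dbp and Ciart followed by their means, and the range of each gene overlapped that of the next. In stroma Nr1d1 led (12.6 ± 3.77 normalised counts per kilobase, SD, n = 5), and its lowest sample lay above the highest sample of Nr1d2, the next gene (4.24 ± 1.27), but below Cry1 in O3 (7.76 against 7.97). Per1, Cry1, Clock, Arntl, Dbp, Per2, Per3 and Ciart came after it with overlapping ranges. By mean, Clock held the first place in epithelium and the fifth in stroma, in both layers with a range that overlapped its neighbours. Ciart, a transcriptional repressor of the clock, was the lowest of the 10 in both layers (0.218 ± 0.334 in epithelium and 0.258 ± 0.355 in stroma) and was too low to be tested between layers or ages.

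**Figure D1:**
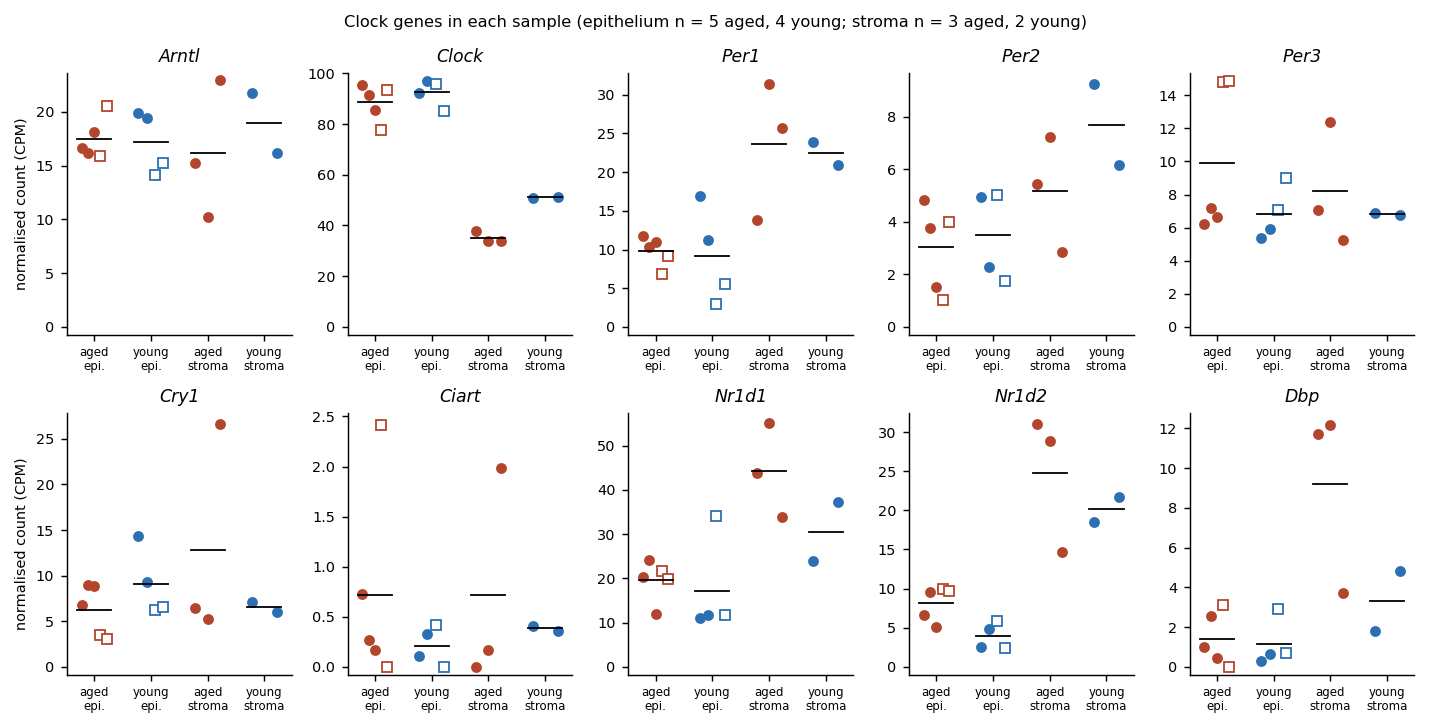
Normalised counts (CPM on the TMM-adjusted library size, linear axes that start near 0) of the 10 clock genes in each of the 14 samples, with 1 panel per gene. Points are samples (red aged, blue young, open squares OF5, OM8, YF5 and YM4), and black lines are group means. Clock and Nr1d2 separate the layers without overlap, YF5 stands above the other young epithelial samples in Nr1d1 and Dbp, and O3 stands above the other stromal samples in Cry1 and Ciart.

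The first comparison was that of the layers. Of the 9 clock genes that could be tested over all 14 samples, 6 differed between epithelium and stroma by edgeR's quasi-likelihood test (Benjamini-Hochberg adjusted p under 0.05): Clock was higher in epithelium, and Per1, Per2, Nr1d1, Nr1d2 and Dbp were lower. Of all 16791 genes tested, 26.1% were higher and 30.1% lower in epithelium, so that 1 of 9 clock genes higher lay below that share and 5 of 9 lower lay above it. The median log2 fold change was −0.91 over the 9 clock genes and −0.05 over all genes tested. In bulk tissue of different cell types, fewer cells that transcribe a gene and less transcript per cell cannot be told apart.

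Among the activators, Clock (ENSMUSG00000029238, chr5:76209868-76304792, minus strand, protein-coding), the histone acetyltransferase partner of BMAL1, had 77.5 to 96.9 normalised counts in epithelium (median 92.4, n = 9). In stroma it had 37.7 in O1, 33.8 in O2, 33.7 in O3, 51.0 in Y1 and 51.3 in Y3. Every epithelial sample lay above every stromal sample, a separation seen for 31.3% of all genes tested, and the log2 fold change was 1.12 (SE 0.15, adjusted p = 3.46e-06, edgeR). Arntl (ENSMUSG00000055116, chr7:113207465-113314126, plus strand), its partner, had 14.2 to 20.5 normalised counts in epithelium (median 16.6) and 15.2, 10.2, 23.0, 21.8 and 16.2 in the stroma of O1, O2, O3, Y1 and Y3. The layers overlapped for Arntl throughout, with a log2 difference of 0.01 (SE 0.18, adjusted p = 0.953).

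Among the repressors, Per1 (ENSMUSG00000020893, chr11:69095217-69109960, plus strand), which also responds quickly to glucocorticoids and other signals, had 2.92 to 16.9 normalised counts in epithelium (median 10.3). In stroma it had 13.8 in O1, 31.3 in O2, 25.7 in O3, 23.9 in Y1 and 20.9 in Y3. Only the epithelium of Y1 (16.9) reached into the stromal range, and Per1 was lower in epithelium by a log2 fold change of −1.21 (SE 0.26, adjusted p = 0.000527, edgeR). Per2 (ENSMUSG00000055866, chr1:91415982-91459324, minus strand) had 1.03 to 5.0005 normalised counts in epithelium (median 3.76) and 5.43, 7.23, 2.87, 9.24 and 6.15 in the stroma of O1, O2, O3, Y1 and Y3. Only the stroma of O3 (2.87) fell into the epithelial range. The epithelial values of OF5 and YM4 rested on 3 and 5 counts. The log2 fold change of Per2 was −0.91 (SE 0.35, adjusted p = 0.0340), and this call was lost when mouse was taken as a block over the 10 paired samples (adjusted p = 0.0876) and without mouse O2 (0.0780), Y1 (0.0961), Y3 (0.0736) or YM4 (0.0539).

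Per3 (ENSMUSG00000028957, chr4:151003652-151044665, minus strand), the PERIOD protein least needed for rhythmicity, had 5.35 to 14.8 normalised counts in epithelium (median 7.08) and 5.24 to 12.4 in stroma (median 6.91), with a log2 difference of 0.11 (SE 0.28, adjusted p = 0.763). Cry1 (ENSMUSG00000020038, chr10:85131700-85185064, minus strand), the cryptochrome that represses BMAL1 and CLOCK late in the cycle, had 3.06 to 14.3 normalised counts in epithelium (median 6.83). In stroma it had 6.42 in O1, 5.26 in O2, 26.6 in O3, 7.12 in Y1 and 6.07 in Y3. The stroma of O3 lay above all other samples for Cry1, and its log2 difference was −0.40 (SE 0.39, adjusted p = 0.391) with that mouse and 0.31 (adjusted p = 0.433) without it. Ciart (ENSMUSG00000038550, chr3:95878503-95882251, minus strand) was also highest in the stroma of O3 among stromal samples, with 1.99 against 0 to 0.413 normalised counts. That library was also the one with the high Igkc, and the part of this in its Cry1 and Ciart values was not tested.

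The REV-ERB receptors, which repress Arntl, were both lower in epithelium. Nr1d2 (ENSMUSG00000021775, chr14:18204054-18239127, minus strand) had 2.42 to 9.99 normalised counts in epithelium (median 5.83) and 31.0, 28.8, 14.7, 18.5 and 21.7 in the stroma of O1, O2, O3, Y1 and Y3. The layers did not overlap, and the log2 fold change was −1.88 (SE 0.29, adjusted p = 1.45e-05, edgeR). Nr1d1 (ENSMUSG00000020889, chr11:98767932-98775333, minus strand) had 10.98 to 34.2 normalised counts in epithelium (median 19.8). In stroma it had 43.7 in O1, 55.1 in O2, 33.9 in O3, 23.9 in Y1 and 37.3 in Y3. The log2 fold change of Nr1d1 was −1.09 (SE 0.25, adjusted p = 0.00104), and the overlap came from the epithelium of YF5 (34.2) and O2 (24.2). The 3′ end of Nr1d1 overlaps Thra, a thyroid hormone receptor gene on the opposite strand, over 263 of its 3077 exonic bases. Thra had 46.6 to 78.6 normalised counts in stroma and 9.001 to 17.9 in epithelium, and because the use of strand in counting is not given, reads of both genes in this overlap cannot be told apart.

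Dbp (ENSMUSG00000059824, chr7:45705088-45710203, plus strand), the output factor, showed the largest layer difference of the 9 genes. It had 0 to 3.101 normalised counts in epithelium (median 0.692) and 11.7 in O1, 12.2 in O2, 3.71 in O3, 1.81 in Y1 and 4.81 in Y3 in stroma. The log2 fold change was −2.56 (SE 0.60, adjusted p = 0.00126, edgeR), and the layers overlapped through the epithelium of O2, OF5 and YF5 and the stroma of Y1. In the shallow libraries of OF5, OM8, YF5 and YM4 these values rested on 9, 0, 7 and 2 counts. Dbp shares 539 of its 2993 exonic bases with Sphk2 on the opposite strand, which ran the other way, with 9.001 to 18.96 normalised counts in epithelium and 6.83 to 9.33 in stroma. Here too the reads of both genes in the overlap cannot be told apart, and in epithelium Dbp had 0 to 84 counts against 26 to 626 for Sphk2.

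Within the 5 mice with both layers the direction was the same in each mouse for all 6 genes called. The samples of these mice were part of the fit that called the genes, so their direction here is no separate test. The share of all genes with the same direction in each mouse was not counted. Clock was higher in epithelium than in stroma in 5 of 5 mice, by a log2 difference of 0.85 to 1.42. Per1 (−1.56 to −0.23), Per2 (−1.25 to −0.15), Nr1d1 (−1.63 to −1.09), Nr1d2 (−2.64 to −1.44) and Dbp (−3.04 to −1.56) were lower in epithelium in 5 of 5 mice. Arntl was higher in epithelium in 3 of 5 mice, Per3 in 1 and Cry1 in 4, and the 1 mouse in which Cry1 was lower in epithelium was O3.

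**Figure D2:**
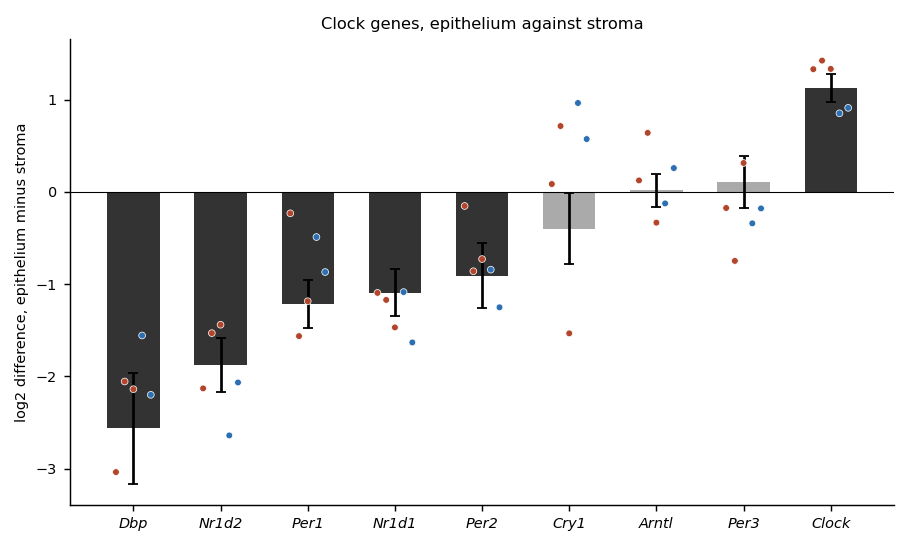
Log2 difference between epithelium and stroma for the 9 clock genes tested, over 14 samples. Bars are the fold changes of the fit and lines their standard errors (dark: adjusted p under 0.05), and points are the differences within each of the 5 mice with both layers (red aged, blue young). Dbp, Nr1d2, Per1, Nr1d1 and Per2 lie below 0 in all 5 mice and Clock lies above 0 in all 5, while the points of Cry1, Arntl and Per3 fall on both sides.

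Other genes of the clock differed between the layers in both directions. Of 13 further core clock genes and regulators, 11 were tested, 5 were higher in epithelium and 3 lower (median log2 fold change 0.48), beside 26.1% higher and 30.1% lower among all genes tested. Bhlhe41, a repressor of E-box transcription, was lower in epithelium (log2 fold change −2.96, adjusted p = 1.80e-06, edgeR), as was Cry2 (−1.67, adjusted p = 4.28e-08). Arntl2, the paralogue of Arntl, was higher (1.48, adjusted p = 0.0132). Of the 10 clock outputs 7 were lower in epithelium and none higher, beside the same shares of all genes, and their median log2 fold change was −1.55 against −0.05 over all genes tested. Its largest differences were in Ppp1r3c (−5.62), a glycogen regulator, and Pdk4 (−3.55), a kinase that restrains pyruvate oxidation, which are both genes of muscle metabolism, followed by Tsc22d3 (−1.89), a glucocorticoid target, and Tef (−1.72), a PAR bZIP factor related to DBP. The summed skeletal muscle markers moved with the same comparison (169.5 to 1855 against 42353 to 76538), and their part in these differences cannot be told apart from that of the layer.

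Glucocorticoids act on Per1 and on several outputs, and a list of 9 glucocorticoid-responsive genes, Per1 included, was examined beside them. Against stroma 3 of the 9 were higher and 5 lower in epithelium, beside 26.1% and 30.1% of all genes tested, with the largest differences in Zbtb16 (−3.86), Sgk1 (2.63), Klf9 (−2.47) and Tsc22d3 (−1.89). Of 10 immediate early and stress genes, 4 were higher and 1 lower in epithelium, beside the same shares, led by Ier2 (2.83), Junb (2.35), Egr1 (2.16) and Dnajb1 (2.16). Per1, itself inducible within minutes in many cells, was lower in epithelium, and the part of induction in its values was not tested.

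To ask whether the layers of one mouse carried a common clock state, the 5 mice O1, O2, O3, Y1 and Y3 were compared over both layers. Dbp gave the same order of mice in epithelium and in stroma. In epithelium it had 2.54 normalised counts in O2, 0.988 in O1, 0.654 in Y3, 0.455 in O3 and 0.283 in Y1, and the stromal values given above fell in the same sequence, with O2 and O1 highest and Y1 lowest. The same order in both layers was found for 1 of the 10 clock genes and for 0.852% of all 22771 genes tested. From the highest to the lowest mouse the span was 8.98-fold in epithelium and 6.73-fold in stroma. The epithelial values rested on few reads, with 84 counts in O2, 34 in O1, 20 in Y3, 11 in O3 and 8 in Y1, against 35 to 296 counts in stroma.

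Nr1d1 was likewise highest in O2 and O1 and lowest in Y1 in both layers. Its epithelium had 24.2 normalised counts in O2, 20.2 in O1, 11.9 in O3, 11.7 in Y3 and 10.98 in Y1, and only O3 and Y3 changed places in stroma. Nr1d2 had 9.63 in the epithelium of O2, 6.69 in O1, 5.09 in O3, 4.81 in Y3 and 2.55 in Y1. O1 and O2 were again the highest pair in stroma, but the lowest mouse was Y1 in epithelium and O3 in stroma. Arntl, the target of REV-ERB repression, ran the other way, with 19.9 normalised counts in the epithelium of Y1, 19.4 in Y3, 18.1 in O3, 16.6 in O1 and 16.2 in O2. O1 and O2 were the lowest mice for Arntl in both layers, although its span was small in epithelium (1.23-fold) and wider in stroma (2.24-fold).

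**Figure D3:**
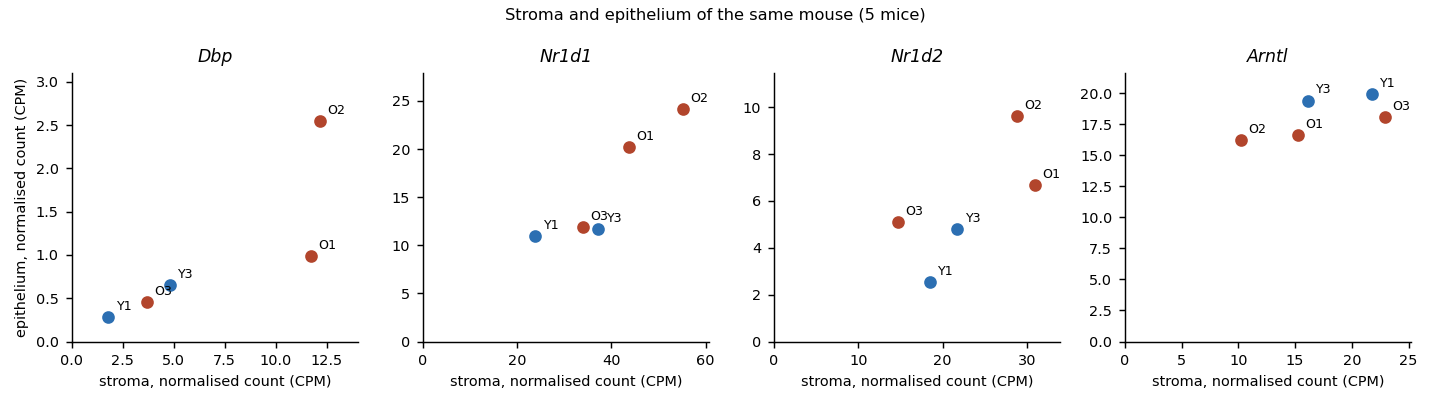
Normalised counts (CPM on the TMM-adjusted library size) of Dbp, Nr1d1, Nr1d2 and Arntl in the epithelium (y axis) against the stroma (x axis) of the same mouse, for the 5 mice with both layers (red aged, blue young). O1 and O2 are the highest pair on both axes for Nr1d1 and Nr1d2 and the lowest pair on both axes for Arntl. For Dbp both lie at the right, with O2 at the top (2.54) and O1 lower (0.988) on the y axis.

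The joint edgeR quasi-likelihood test of a mouse term common to both layers called none of the 10 clock genes (adjusted p of 0.995 each), where 10 of 22771 genes were called (0.0439%). At an unadjusted p under 0.05 it held 3 of the 10, Dbp (unadjusted p = 0.00175), Nr1d1 (unadjusted p = 0.00354) and Nr1d2 (unadjusted p = 0.0245), against 1.30% of all genes tested. With DESeq2 in place of edgeR 1 clock gene was called (Dbp, adjusted p = 0.00442), and without a filter on low counts 2 were called (Dbp, 0.0343, and Cry1, 0.0494). With mouse terms fitted within age none was called. In the main test the mouse terms hold the difference between aged and young mice, so that mouse and age cannot be told apart in its p-values. The other 7 clock genes had unadjusted p-values from 0.0587 (Per2) to 0.793 (Ciart) in the edgeR test.

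These 7 genes did not repeat one order. Per2 was highest in Y1 and lowest in O3 in both layers, at 4.92 and 1.53 normalised counts in epithelium. Clock was highest in Y3 and lowest in O3 in both, with a span of only 1.13-fold in epithelium and 1.52-fold in stroma. Per1 was highest in Y1 in epithelium and in O2 in stroma, and none of the 5 mice held the same place in both layers. Over the 10 genes the same mouse was highest in both layers for 5, against 21.0% of all genes tested, and the same mouse was lowest for 5, against 22.1%.

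**Figure D4:**
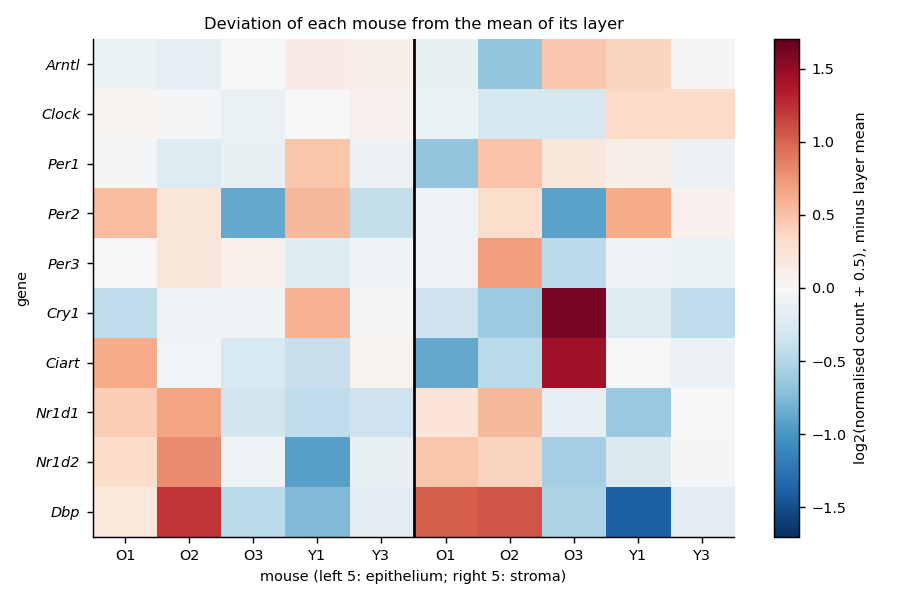
Deviation of each of the 5 mice with both layers from the mean of its layer, in log2(normalised count + 0.5), for the 10 clock genes (rows), in epithelium (left 5 columns) and stroma (right 5 columns). Red is above and blue below the layer mean. O2 is red for Nr1d1, Nr1d2 and Dbp in both layers and Y1 is blue for these 3 genes in both, while Cry1 and Ciart are dark red only in the stroma of O3.

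Other genes also differed between these mice. Of the 10 clock outputs, 3 had an unadjusted p under 0.05 for the common mouse term, namely Pdk4 (unadjusted p = 0.00282), Tsc22d3 (unadjusted p = 0.00485) and Tef (unadjusted p = 0.0358). Of the 13 further core clock genes none did. Pdk4 and Tsc22d3 did not repeat the order of Dbp but placed both young mice above all aged mice in stroma. Pdk4 had 530.6 normalised counts in the stroma of Y3 and 217.6 in Y1, against 90.6 to 157.4 in aged stroma. Tsc22d3 had 64.6 in the stroma of Y1 and 55.0 in Y3, against 33.8 to 43.8 in aged stroma. Tef, like Dbp a PAR bZIP factor, was highest in O2 in both layers, with 20.02 normalised counts in epithelium and 67.4 in stroma. Of the immediate early and stress genes, 3 of 10 did, all of them heat shock genes: Hspa1b (unadjusted p = 2.45e-05, adjusted p = 0.0506), Hspa1a (unadjusted p = 6.02e-05, adjusted p = 0.114) and Dnajb1 (unadjusted p = 0.000694, adjusted p = 0.988). Hspa1b had 793.4 normalised counts in the epithelium of O1, 733.9 in Y1, 406.1 in O2, 135.6 in O3 and 107.9 in Y3. The heat shock genes thus placed Y1 beside O1 and O2, whereas Dbp and Nr1d1 placed Y1 at the opposite end from them. The part of tissue handling in either pattern was not tested. Markers of cell types moved with mouse as well, with an unadjusted p under 0.05 for 3 of 5 adipocyte genes (Fabp4, unadjusted p = 0.00129, Plin1, 0.00575, and Adipoq, 0.0104), 2 of 6 fibroblast genes (Lum and Col1a1), 1 of 10 keratinocyte genes (Ivl) and 1 of 7 immune genes (Cd79a), against 1.30% of all genes tested. The adipocyte genes summed to 134.7 normalised counts in the stroma of O2, 137.4 in O1, 178.8 in Y1, 304.3 in O3 and 717.6 in Y3, and to 1.03 to 2.68 in the epithelium of these mice. O2 and O1, the highest mice for Dbp and Nr1d1, were thus the lowest for these sums in stroma, and the part of the cell types in the mouse values was not tested.

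Age was compared next, within each layer. None of the 9 clock genes tested in epithelium was called between 5 aged and 4 young mice (edgeR with a term for the 2 forms of mouse code, adjusted p of 0.619 for Nr1d2 and 0.9996 for the other 8), where 2 of all 15859 genes (0.0126%) were called. At an unadjusted p under 0.05 there were 3 of the 9, Nr1d2, Cry1 and Per3, against 3.21% of all genes tested. With DESeq2 0 clock genes were called, and without a filter on low counts 1 was (Nr1d2, adjusted p = 0.0273).

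Nr1d2 had 6.69 normalised counts in the aged epithelium of O1, 9.63 in O2, 5.09 in O3, 9.99 in OF5 and 9.66 in OM8, and 2.55 in the young epithelium of Y1, 4.81 in Y3, 5.83 in YF5 and 2.42 in YM4. Only O3 among the aged fell below the highest young sample, YF5, and the log2 difference was 1.03 (SE 0.27, unadjusted p = 0.00105). Per3 had 6.19, 7.18, 6.63, 14.8 and 14.8 in the aged mice in the same order and 5.35, 5.92, 7.08 and 9.001 in the young mice, a log2 difference of 0.44 (SE 0.18, unadjusted p = 0.0269). Cry1 ran the other way, with 6.83, 8.94, 8.86, 3.45 and 3.06 in aged and 14.3, 9.26, 6.25 and 6.58 in young epithelium (log2 difference −0.65, SE 0.20, unadjusted p = 0.00470).

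The form of the mouse code moved with these genes as well. The 4 mice with the other form had Per1 at 2.92 to 9.19 and Cry1 at 3.06 to 6.58 normalised counts in epithelium, below the ranges of the other 5 mice (10.3 to 16.9 and 6.83 to 14.3). These were 2 of the 9 clock genes tested, and 20.5% of all genes tested kept the forms apart in this way, so that the share of clock genes was near that of all genes. The keratinocyte markers separated the same mice, with sums of 17882 to 28928 against 42825 to 55463 normalised counts, as did the 9 glucocorticoid-responsive genes (114.6 to 142.5 against 168.8 to 201.2), and their part in the Per1 and Cry1 values was not tested. The TMM factors of the epithelial libraries separated the forms too (0.256 to 0.506 against 1.29 to 1.74), and their part in all these values was not tested. The aged and young groups of Nr1d2, Per3 and Cry1 overlapped over all 9 mice, but within each form of the code they did not. Aged mice were higher in both forms for Nr1d2 and Per3 and lower in both for Cry1. Such a separation in both forms, in the same direction, was counted after the values were seen and was found for 3 of the 9 clock genes tested and for 3.61% of all genes tested. For groups that do not overlap over all 9 mice the counts were 0 of the 9 clock genes and 1.27% of all genes tested. The separations within the forms rested on few reads or small margins. In OF5, OM8, YF5 and YM4, Cry1 had 10, 13, 15 and 19 reads and Nr1d2 29, 41, 14 and 7. In the other form the nearest aged and young values were 5.09 (O3) and 4.81 (Y3) for Nr1d2. They were 6.19 (O1) and 5.92 (Y3) for Per3, and 8.94 (O2) and 9.26 (Y3) for Cry1.

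For the other 6 genes tested the unadjusted p was 0.232 or more. Clock had a log2 difference of −0.08 (SE 0.12), Arntl of −0.05 (SE 0.15), Per1 of −0.05 (SE 0.23) and Per2 of −0.14 (SE 0.41). Nr1d1 had 20.2, 24.2, 11.9, 21.7 and 19.8 normalised counts in the aged epithelium of O1, O2, O3, OF5 and OM8, and 10.98, 11.7, 34.2 and 11.8 in the young epithelium of Y1, Y3, YF5 and YM4. The young sample YF5 thus lay above all aged samples, while the other 3 young samples lay below all aged samples. The log2 difference of Nr1d1 was 0.40 (SE 0.31, unadjusted p = 0.232) with YF5 and 0.72 (adjusted p = 0.969) without it, and −0.10 within the 4 mice OF5, OM8, YF5 and YM4. YF5 also had the lowest TMM factor of the 9 epithelial samples (0.256 against 0.309 to 1.74). Its summed skeletal muscle markers were the highest of the 9 (1855 against 169.5 to 1145). The part of either in its Nr1d1 and Dbp values was not tested. The log2 difference of Dbp was 0.95 (SE 0.80, unadjusted p = 0.255).

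In stroma none of 9 clock genes was called between 3 aged and 2 young mice (edgeR, adjusted p of 0.99996 each), nor was any other of 21323 genes (0%). At an unadjusted p under 0.05 there was 1 of the 9, Clock, against 3.64% of all genes tested. Clock was lower in the 3 aged (33.7 to 37.7 normalised counts) than in the 2 young samples (51.0 and 51.3), with a log2 difference of −0.55 (SE 0.23, unadjusted p = 0.0371). It was the only 1 of the 9 genes tested whose groups did not overlap, and 20.6% of all genes had such groups. Cell type markers moved with the same comparison. The smooth muscle genes summed to 815.6 to 2051 normalised counts in aged and to 302.6 to 599.9 in young stroma (4 of 5 at an unadjusted p under 0.05), and 5 of 9 keratinocyte and 3 of 5 adipocyte genes also had an unadjusted p under 0.05. Keratinocyte sums were 53.2 to 470.1 in aged and 48.4 to 76.3 in young stroma, adipocyte sums 134.7 to 304.3 and 178.8 to 717.6, and the part of these cell types in the Clock values was not tested. Dbp had a log2 difference of 1.46 (SE 0.68, unadjusted p = 0.0568), because O1 (11.7) and O2 (12.2) lay high, while the third aged mouse, O3 (3.71), lay between Y1 (1.81) and Y3 (4.81). With DESeq2 and without a filter 0 clock genes were called. With 3 against 2 mice the spread left the other 7 genes open to differences of either sign, with SEs of 0.31 to 0.68.

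**Figure D5:**
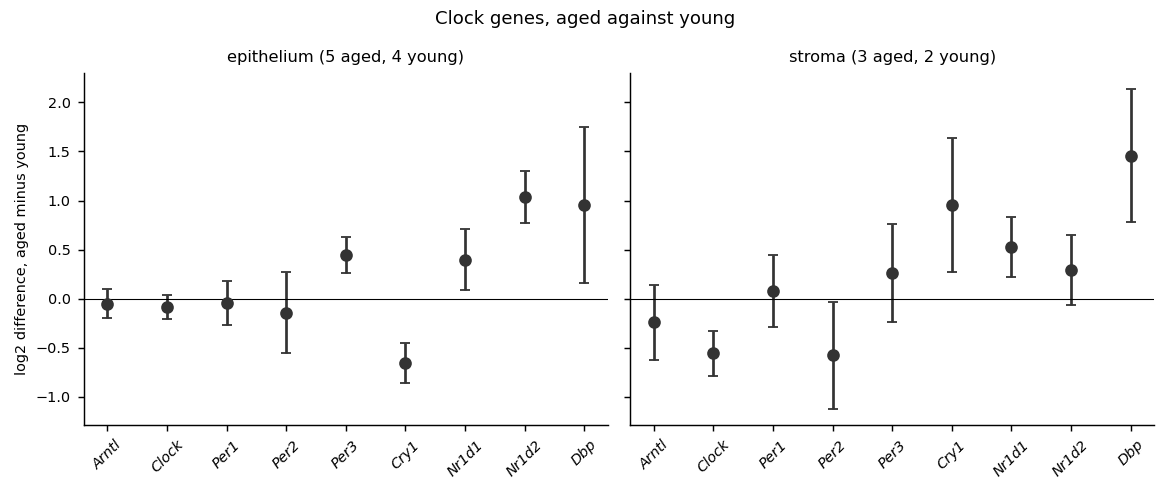
Log2 difference between aged and young mice for the 9 clock genes tested in epithelium (left, 5 against 4 mice) and in stroma (right, 3 against 2 mice). Points are the fold changes of the edgeR fits and lines their standard errors. Nr1d2 and Per3 lie above 0 and Cry1 below 0 in epithelium, Clock lies below 0 in stroma, and none passed the adjusted threshold.

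Whether the age difference itself differed between the layers was tested in the 5 mice with both. The fit held no term for mouse, so that the pairing of the layers was not used. The interaction of age and layer was called for none of the 10 clock genes and none of 22771 genes (0%). At an unadjusted p under 0.05 it held for 0 of the 10, against 4.30% of all genes, and the lowest p was that of Clock (0.0657, log2 difference 0.50, SE 0.24). With DESeq2 and without a filter 0 clock genes were called.

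Of the related lists none held a called gene for age in either layer. At an unadjusted p under 0.05 in epithelium there were 0 of 11 further core clock genes and 3 of 10 outputs, against 3.21% of all genes tested. These 3, named after their values were seen, were Tsc22d3 (log2 difference −0.79, adjusted p = 0.261), Pdk4 (−0.53) and Tef (0.49). In stroma there were 0 of 13 core genes and 2 of 10 outputs, against 3.64% of all genes, Pdk4 (−1.53) and Tsc22d3 (−0.58), both lower in aged mice in that layer too. Of the 9 glucocorticoid-responsive genes there was 1 in epithelium, Tsc22d3, which is also among the outputs, and there were 2 in stroma, Tsc22d3 and Zbtb16 (log2 difference −1.19, unadjusted p = 0.00604). The heat shock and immediate early genes had 0 of 10 in either layer. Of the fibroblast markers 3 of 6 had an unadjusted p under 0.05 in epithelium, where they summed to 280.5 to 453.9 normalised counts in aged and 415.9 to 632.5 in young mice.

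Over all 14 samples, after centring within layer and form of the mouse code, some pairs of clock genes went together and others ran against each other. These are descriptions over samples that share mice and libraries, and they carry no test. Age was left in the values, and Cry1, Nr1d2 and Per3 are the genes whose aged and young epithelium did not overlap within either form of the code. The values of Dbp in OF5, OM8, YF5 and YM4 rested on 9, 0, 7 and 2 counts and were not resolved, so that counting noise enters its coefficients. Dbp went with Nr1d1 (Pearson's r = 0.75, Spearman's rho = 0.79) and against Arntl (r = −0.75, rho = −0.82), and Arntl also went against Nr1d1 (r = −0.59, rho = −0.74). Nr1d1 and Nr1d2 went together (r = 0.70, rho = 0.71). Cry1 went against Nr1d2 (r = −0.68, rho = −0.69) and Per3 (r = −0.72, rho = −0.77), and Per3 went with Nr1d2 (r = 0.65, rho = 0.79). These are the pairs with the strongest coefficients among the 9 genes tested between layers. The other pairs were weaker, with Clock and Per2 at r = 0.56, Per1 and Dbp at −0.50 and Dbp and Cry1 at −0.18, and Clock, Per1 and Per2 were in none of the pairs named above.

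Among 6772 genes outside the set whose mean log2 CPM reached 3, those most like Dbp over these samples were Sdf4 (r = 0.89), Rpl27-ps3 (0.89), Hpse (0.83), Golga2 (0.81) and Rpl17-ps8 (0.80), and those most opposed were Kif2a (−0.86), Cdkn1b (−0.83), Il6ra (−0.82), Elf2 (−0.82) and Mindy3 (−0.81). For Arntl the most like were Pias1 (0.89), Ankrd44 (0.87), Med1 (0.86), Rc3h2 (0.86) and Tmem183a (0.85), and the most opposed Txndc15 (−0.91), Nde1 (−0.91), Pgam1 (−0.90), Gstm2-ps1 (−0.89) and Alox12b (−0.89). None of these 20 genes is in the lists of clock genes and outputs examined here, and Rpl27-ps3, Rpl17-ps8 and Gstm2-ps1 are pseudogenes whose counts may hold reads of near-identical genes. The opposition of Dbp to Arntl (r = −0.75) was weaker than that of its 5 most opposed genes. All coefficients and places by likeness to Dbp include its unresolved values in OF5, OM8, YF5 and YM4.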

How the data were processed

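Poly(A) RNA of 14 samples from 9 mice was sequenced in bulk, with layer, age and mouse as labelled and no sample left out. For each sample the authors deposited whole-number counts of reads per gene, not normalised. Reads had been aligned to GRCm38.p6 with Rsubread and counted with featureCounts, and the annotation release and the use of strand or of reads with several matches are not given in the sources used here. Depth was 8217516 to 21867101 counts per sample.

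The test was that of edgeR 4.0.16 under R 4.3.3 (TMM normalisation, filterByExpr with a minimum count of 10, glmQLFit with robust estimation, glmQLFTest), and p-values received a Benjamini-Hochberg adjustment over all genes tested, with calls at an adjusted p under 0.05. The layers were compared over 14 samples without a covariate, age over 9 epithelial samples with a term for the 2 forms of mouse code and over 5 stromal samples, and the interaction and the mouse term common to both layers over the 10 samples of 5 mice. The interaction was fitted beside age and layer, without a term for mouse. The mouse term was fitted beside layer, without a term for age. The standard error is the size of the log2 fold change divided by the square root of F. A normalised count is CPM on the TMM-adjusted library size, with a pseudocount of 0.5 on the log2 scale. Correlations used log2 values centred within layer and form of the code, with age left in. Counting error enters these tests through the spread between mice.

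Both layers of O1, O2, O3, Y1 and Y3 are paired by the animal named in the labels. The correlation of their deviations from the group means over 22771 genes was 0.0131 to 0.0854. Replicates of a group differed by more than sampling noise (lowest chi-square per degree of freedom 12.0 over 20 pairs).

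Gene positions are those of GENCODE M21, and promoters those of RefSeq on GRCm38.p6. The clock genes, the related lists and the tests were chosen with earlier results of these data known. Named beyond the clock genes were at most 4 genes per list and comparison with the largest change among those called (for the mouse term, the lowest p) and the 5 genes most like and most opposed to Dbp and Arntl. One gene that this rule names is not reported here. Alternatives were DESeq2 1.42.0, 2 other normalisations, no filter and a stricter filter, mitochondrial genes left out, other terms or subsets of samples, mouse as a block, and each mouse left out in turn. The alternative without mitochondrial genes also left out the rRNA gene CT010467.1, 38 genes in all. The main edgeR fits of layer, age, interaction and mouse were tested on simulated counts, and the alternatives and descriptive measures were not.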

Additional observations from a re-analysis of the deposited data

Results flagged for a closer look

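In 2 of the 20 groups of 4 or 5 epithelial samples examined, 1 sample lay far from the others, and chance alone gives about 1 in 20. Both were the young epithelium of YF5. Nr1d1, the REV-ERBα receptor, had 34.2 normalised counts there against 10.98 to 11.8 in the other 3 young samples, a gap of 0.966 of the whole range. Dbp had 2.92 against 0.283 to 0.692, a gap of 0.845 of the range, on 7 counts. This library was the shallowest on the TMM-adjusted scale, with a TMM factor of 0.256 against 0.352 in YM4, 1.29 in Y1 and 1.73 in Y3. Nr1d1 rested on 82 of 9387380 counts in YF5, a smaller share of the total than 310 of 21867101 in Y1 and 357 of 17802690 in Y3. It was a larger share than 34 of 8217516 in YM4. The skeletal muscle markers of YF5 summed to 1855 normalised counts against 169.5 to 1145 in the other 8 epithelial samples. The part of depth, factor or muscle markers in the values was not tested.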

How the results depend on the processing

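Clock, Per1, Nr1d1, Nr1d2 and Dbp kept their direction and their call between the layers under every alternative in which they were tested. Under a minimum of 10 counts in each sample, 2 clock genes were called in place of 6, because fewer were tested. With mouse as a replicate block over the 5 mice 5 were called, Per2 being lost (log2 fold change −0.74, adjusted p = 0.0876), and the block changed no other call. Per2 also missed the threshold with no filter (−0.71, adjusted p = 0.109), with age as a covariate (−0.86, 0.05002) and over the 10 samples without the block (−0.82, 0.0837). Leaving out each mouse in turn gave 5 to 6 called genes. Without a filter, 1 clock gene was called for age in epithelium in place of 0, and 2 for the common mouse term, for which DESeq2 called 1. The cause was not tested. No clock gene was called for age in stroma or for the interaction under any alternative run. The median log2 fold change of all genes between the layers was −0.05, −0.12 with RLE and −0.15 with upper quartile normalisation. Over all genes, the calls ran from 4316 (10 counts in every sample) to 14026 (no filter) between the layers against 9441, from 0 to 36 for age in epithelium against 2, from 0 to 26 for age in stroma and from 0 to 98 for the interaction against 0, and from 0 to 232 for the mouse term against 10, with the highest number always without a filter.

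Differences that changed sign were never called. Between the layers, Arntl was −0.051 with DESeq2, −0.050 with RLE normalisation, −0.071 with upper quartile normalisation and −0.30 with 10 counts in every sample, and −0.13 to 0.13 with each mouse left out. Cry1 was 0.34 with the block and −0.68 to 0.31 with each mouse left out, and Per3 was −0.19 with 10 counts in every sample, −0.11 with the block, −0.28 over the same 10 samples without it and −0.033 to 0.37 with each mouse left out. For age in epithelium, within OF5, OM8, YF5 and YM4 alone Arntl was 0.34, Nr1d1 −0.10 and Per1 0.93, and Per1 was 0.021 with DESeq2. With each mouse left out Arntl ran from −0.14 to 0.016, Per1 from −0.21 to 0.29 and Per2 from −0.45 to 0.22. For age in stroma, Per1 was −0.015 with upper quartile normalisation, and with each mouse left out it ran from −0.22 to 0.35, Cry1 from −0.21 to 1.29 and Per3 from −0.20 to 0.48. For the interaction, Arntl was −0.027 with DESeq2, −0.027 with RLE normalisation, −0.084 without mitochondrial genes and −0.21 with no filter, Ciart 0.076 with upper quartile normalisation and 1.51 with the block, Dbp −0.044 with DESeq2, −0.047 with RLE normalisation, −0.080 without mitochondrial genes, −0.14 with no filter and −0.15 with the block, Nr1d1 −0.021 with no filter, and Per3 0.027 with upper quartile normalisation and 0.076 with the block. With each mouse left out the interaction ran from −0.27 to 0.36 for Arntl, −0.70 to 0.91 for Ciart, −0.65 to 0.30 for Dbp, −0.19 to 0.50 for Nr1d1 and −0.23 to 0.27 for Per3.

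Dbp and Ciart lay near the limit of 3 counts in the shallow epithelial libraries, so that their levels there were not resolved. The same held for Per2 in OF5 (3 counts) and YM4 (5 counts). Ciart was also at or near this limit in deeper libraries, with 0 counts in the stroma of O1 and 4 in that of O2. In epithelium it had 3 counts in Y1 and 4 in O3.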
